A study of Mus musculus with 6 samples.

Results

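The genes described here encode the sensors that detect DNA or RNA in the cytosol, the adaptors and kinase that pass the signal on, and the enzymes that keep it in check. They are Cgas, Sting1, Rigi, Ifih1, Mavs, Tbk1, Irf3, Trex1, Samhd1 and Adar, chosen by name and not by their values, and all 10 were found among the 56413 gene symbols of the deposited count table. RNA was measured by sequencing total RNA, after removal of ribosomal RNA, from fresh unsorted splenocytes of mouse spleen. The labels describe a pair of stranded, rRNA-depleted library preparations, each with its own sequencer, and do not say which gave which library. There were 3 libraries of the Top3b-KO genotype and 3 of wild-type (WT) splenocytes. Top3b encodes topoisomerase III-beta, an enzyme that passes strands through breaks in DNA and RNA, and the study asked whether it guards against immune dysregulation and tumours. The sources used here give neither the knockout allele nor the strain, sex or age, and do not say whether libraries of a genotype came from separate animals, so p-values measure the spread between these libraries, which may be technical.

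As background, cGAS binds double-stranded DNA and makes the cyclic dinucleotide cGAMP, which activates STING on the endoplasmic reticulum. RIG-I and MDA5, the products of Rigi and Ifih1, bind viral or misplaced double-stranded RNA and signal through MAVS on mitochondria. Both routes meet at the kinase TBK1 and the transcription factor IRF3, which switches on type I interferon genes. TREX1 degrades cytosolic DNA, SAMHD1 breaks down deoxynucleotides, and ADAR edits double-stranded RNA so that MDA5 does not respond to it. In humans, loss of any one of these 3 restraining enzymes can cause Aicardi-Goutières syndrome, an inherited disease with raised interferon.

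Library totals were 24510381, 25473405 and 9941019 counts for Top3b-KO, against 15448261, 15262063 and 15860288 for WT. Top3b itself was at 51.5, 48.2 and 49.7 CPM (counts scaled to library size, with TMM factors) in Top3b-KO, against 95.1, 86.9 and 91.0 CPM in WT, so its RNA was lower without overlap but not lost. B cell markers, the most abundant lymphocyte list, summed to between 3383 and 3543 CPM in Top3b-KO and between 3212 and 3765 CPM in WT. Neutrophil markers varied widely within genotypes, at 433, 601 and 1445 CPM in Top3b-KO, against 602, 1068 and 729 CPM in WT, with Top3b-KO 3 the highest library. Erythroid markers were between 761 and 1112 CPM in Top3b-KO and between 942 and 1663 CPM in WT, a ratio of means of 0.739, with overlapping ranges. As markers of another tissue, 3 hepatocyte markers summed to at most 0.277 CPM in Top3b-KO and 0.524 CPM in WT. In such a mixture, fewer cells of a type and less RNA per cell cannot be told apart.

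The RNA of 9 sensing genes was measured in every library and did not differ detectably between genotypes, while Trex1 was listed at 0 in all 6 libraries. None of the 9 tested genes passed an adjusted p of 0.05 (edgeR, quasi-likelihood, Benjamini-Hochberg over all tested genes), which 0.0107% of the 18716 tested genes did, namely Top3b and Clec16a. At an unadjusted p under 0.05 the count among the 9 was also 0, against 5.52% of all tested genes, and DESeq2 called 0 of them at an adjusted p under 0.05. Without WT 3, 2 of the 9 (Irf3 and Samhd1) were at an unadjusted p under 0.05, as were 13.2% of the genes tested in that fit, and 0 passed an adjusted p of 0.05; in each of the other 5 leave-one-out fits the unadjusted count was 0. Genotypes overlapped for all 9, whereas they did not overlap for 11.0% of all tested genes (5.39% higher and 5.63% lower in Top3b-KO). The log2 fold changes ran from -0.11 to 0.11, 5 above and 4 below 0, with a median of 0.023, beside a median of -0.0029 over all tested genes. The median size of the change, with its sign ignored, was 0.066 on the log2 scale for the 9 genes and 0.064 for all tested genes of at least 10 CPM. The 9 include Cgas, at a mean of 6.21 CPM, so these medians were not taken at the same cut.

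**Figure D1:**
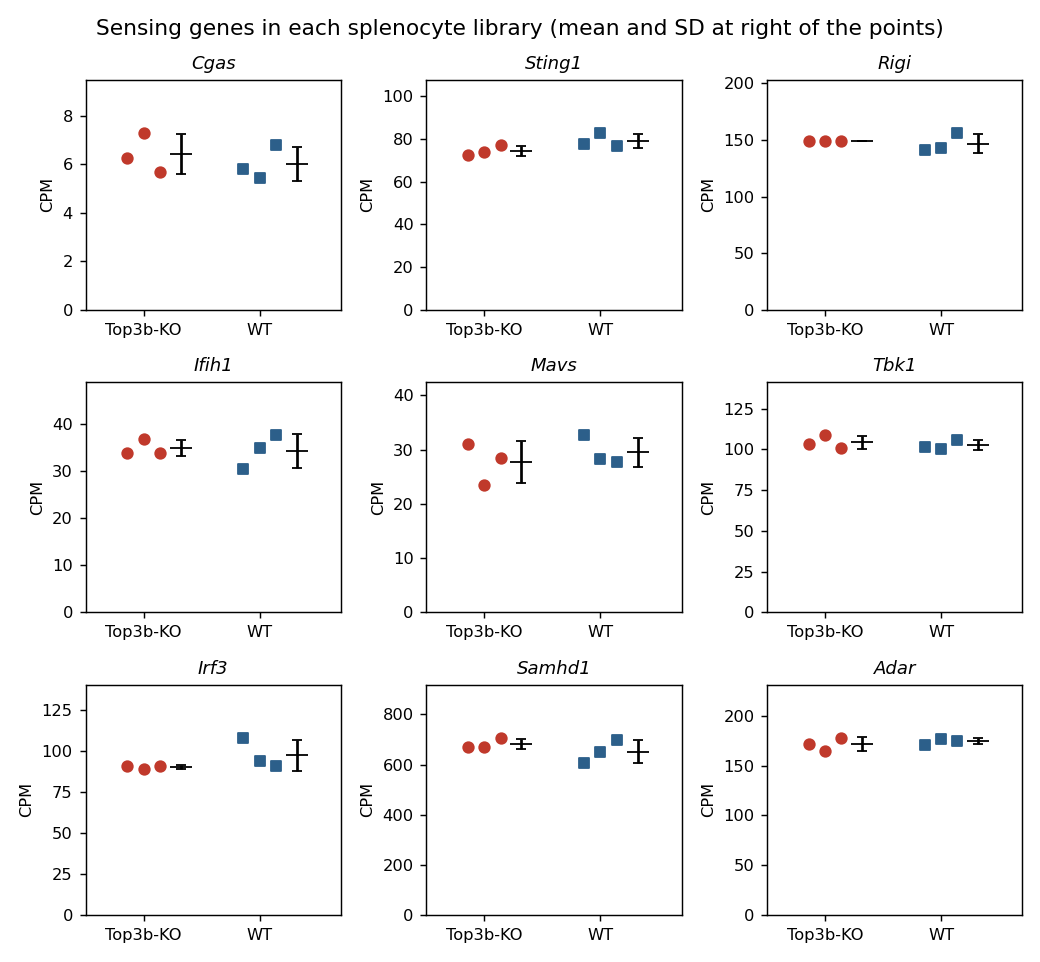
Depth-scaled level (CPM, vertical axes from 0) of each sensing gene in the 3 Top3b-KO libraries (circles) and the 3 WT libraries (squares), with mean and SD beside the points. For all 9 genes the points of the genotypes overlap in height.

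Cgas, the DNA sensor, was the scarcest of the genes measured. It had 153, 184 and 56 counts in Top3b-KO, against 90, 83 and 108 counts in WT, or 6.27, 7.29 and 5.67 CPM in Top3b-KO and 5.81, 5.44 and 6.79 CPM in WT. The highest library was Top3b-KO 2 and the lowest WT 2, and the other 4 lay between them in mixed order. The log2 fold change was 0.11 (SE 0.16), and its 95% interval ran from 0.861-fold to 1.36-fold, the widest upward bound of the 9 genes. Changes within that interval were compatible with these libraries, and the log2 value was 0.0061 without Top3b-KO 2 and 0.21 without WT 3. Cgas shares 201 exonic bases with the pseudogene Gm8093 on the opposite strand, and Gm8093 had at most 11 counts in any library.

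Sting1, which encodes the adaptor for cGAMP, was measured with far more counts than its upstream sensor, from 761 to 1861 per Top3b-KO library and from 1201 to 1264 per WT library. It was at 72.5, 73.7 and 77.0 CPM in Top3b-KO, against 77.6, 82.9 and 76.8 CPM in WT. The 2 lowest values were both from the knockout, but Top3b-KO 3 lay above WT 3. The ratio was 0.940, with a 95% interval of 0.850 to 1.04, and the adjusted p was 0.92 by edgeR.

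The RNA sensors Rigi and Ifih1 are themselves interferon-induced. Promoters of 9 sensing genes were searched, with Trex1 included and Sting1 left out. Among them, Rigi and Ifih1 were the pair with a promoter that held the core of an interferon-stimulated response element. The motif searched was a pair of GAAA blocks with any 2 bases between them, on either strand, in the 300 bases from 250 before to 50 after the start of transcription. It occurred in the promoters of 2 of the 9 members (of 10) searched in the RefSeq table (GRCm38.p6), and in 3.44% of all 32851 promoters of that length. Both sequences are shown in the direction of transcription, with the match in capitals; in Rigi it lies on the opposite strand and begins at base 3 after the start, in Ifih1 at base 33. The Ifih1 window is chr2:62646206-62646505 on the minus strand, and the Rigi window, listed under its older symbol Ddx58, is chr4:40239776-40240075 on the minus strand.
Ifih1: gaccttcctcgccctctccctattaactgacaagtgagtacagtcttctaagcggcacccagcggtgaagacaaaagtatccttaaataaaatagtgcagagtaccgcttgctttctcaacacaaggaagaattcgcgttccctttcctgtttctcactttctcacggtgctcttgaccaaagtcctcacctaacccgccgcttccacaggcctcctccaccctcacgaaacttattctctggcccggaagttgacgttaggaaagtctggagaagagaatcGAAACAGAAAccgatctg
Rigi: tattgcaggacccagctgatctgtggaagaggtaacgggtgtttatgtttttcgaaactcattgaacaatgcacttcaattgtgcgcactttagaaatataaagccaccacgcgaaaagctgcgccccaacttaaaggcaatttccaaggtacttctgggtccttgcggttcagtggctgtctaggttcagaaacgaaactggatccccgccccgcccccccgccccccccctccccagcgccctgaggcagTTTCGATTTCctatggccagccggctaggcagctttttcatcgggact
A match describes these letters and does not show a bound site. Other motifs searched on both strands were TTCNNNGAA (2 of 9 members, Adar and Samhd1, and 8.30% of all promoters), GGGCGG (7 of 9 members and 35.7% of all promoters) and TATAAA (1 of 9, Rigi, and 13.6% of all promoters). A member was counted if any of its promoters matched. Counted by promoter, as the percentages are, the interferon-stimulated response element core was in 2 of 12 member promoters. The other motifs, in the order given, were in 2, 8 and 1 of 12.

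Rigi was at 149 CPM in each Top3b-KO library, against 141, 143 and 156 CPM in WT. The knockout values lay inside the WT range, and their SD was 0.255 CPM, beside 8.31 CPM in WT. Ifih1 was at 33.8, 36.8 and 33.7 CPM in Top3b-KO, against 30.4, 34.9 and 37.5 CPM in WT. Here too the knockout libraries lay within the range of the WT libraries. The log2 fold changes were 0.023 (SE 0.065) for Rigi and 0.023 (SE 0.091) for Ifih1, with 95% intervals of 0.925-fold to 1.12-fold and 0.890-fold to 1.16-fold. Both genes were lowest in WT 1 and highest in WT 3.

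Mavs, the adaptor of both RNA sensors, varied most between libraries of 1 genotype. It was at 31.0, 23.4 and 28.4 CPM in Top3b-KO, against 32.6, 28.2 and 27.6 CPM in WT. Top3b-KO 2 was the lowest library, and Top3b-KO 1 was second only to WT 1. The pooled SD within genotypes was 0.17 on the log2 scale, larger than that of 87.1% of the 2700 tested genes with a mean level within 1.5 times that of Mavs. The ratio was 0.934 (95% interval 0.799 to 1.09), the widest downward bound of the 9 genes, and its log2 value of -0.098 was 0.023 without Top3b-KO 2 and -0.19 without Top3b-KO 1.

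Tbk1, the kinase on which both routes converge, was at 104, 109 and 101 CPM in Top3b-KO, against 101, 100.4 and 106 CPM in WT. The largest value was 1.08 times the smallest, the narrowest span of the 9 genes, and 14.8% of the 2029 tested genes of similar level had a smaller SD within genotypes. The ratio was 1.02, with a 95% interval of 0.927 to 1.12. Irf3, the factor that TBK1 phosphorylates, was at 90.8, 89.2 and 91.2 CPM in Top3b-KO, against 108, 93.8 and 90.8 CPM in WT. WT 1 stood above the other 5 libraries, which spanned 89.2 to 93.8 CPM. The log2 fold change of -0.11 (SE 0.074) had the smallest unadjusted p of the 9, at 0.15 (adjusted p 0.91, edgeR), and its direction was the same in all 15 alternatives. It was -0.033 without WT 1 (unadjusted p 0.65) and -0.16 without WT 3 (unadjusted p 0.024, adjusted p 0.29, edgeR). Irf3 overlaps Bcl2l12 on the opposite strand by 88 exonic bases, and Bcl2l12 was at 8.66 ± 0.472 CPM in Top3b-KO and 9.76 ± 0.791 CPM in WT (SD, n = 3 each).

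**Figure D2:**
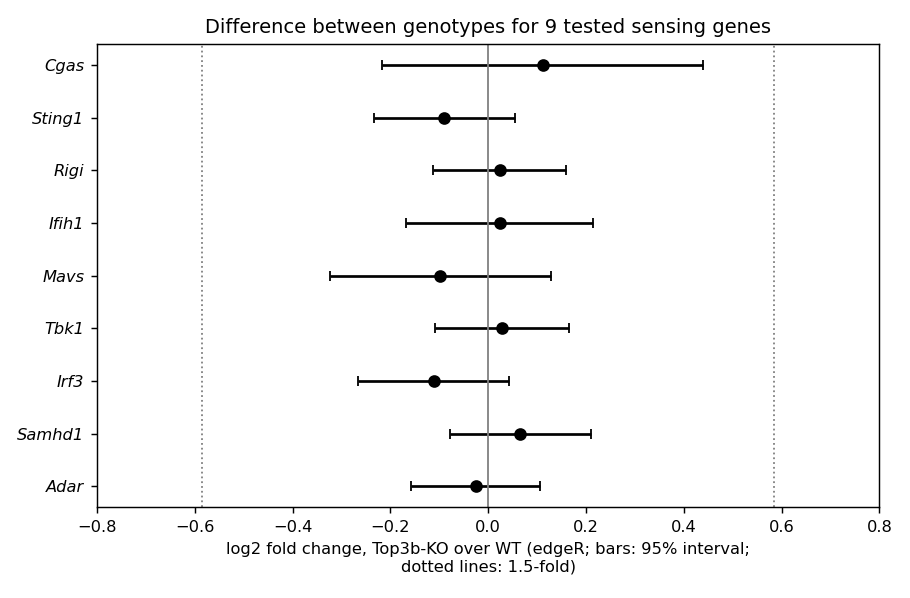
Log2 fold change of each tested sensing gene (Top3b-KO over WT, points) with its 95% interval (bars) from edgeR. Every interval contains 0, and all lie inside the dotted 1.5-fold lines, with bounds from 0.799-fold (Mavs) to 1.36-fold (Cgas).

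Among the restraining enzymes, Samhd1 was the most abundant gene of the set. It was at 668, 672 and 707 CPM in Top3b-KO, against 605, 651 and 699 CPM in WT. WT 1 and WT 2 were the lowest libraries, but WT 3 lay above 2 of the 3 knockout libraries. The ratio was 1.05, with a 95% interval of 0.947 to 1.16, and its log2 value of 0.066 was 0.012 without WT 1 (unadjusted p 0.86) and 0.12 without WT 3 (unadjusted p 0.048, adjusted p 0.37, edgeR). Adar was at 172, 164 and 178 CPM in Top3b-KO, against 171, 177 and 175 CPM in WT. Its highest and lowest libraries were both knockouts, and its ratio was 0.982, with a 95% interval of 0.896 to 1.08. Adar shares 1365 of its 8118 exonic bases with Chrnb2, a nicotinic receptor subunit gene on the opposite strand, which was at 16.3 ± 0.553 CPM in Top3b-KO and 16.9 ± 1.19 CPM in WT (SD, n = 3 each). No source used here states whether counting used the strand, so reads in that stretch cannot be assigned from the table.

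Trex1 was listed at 0 counts in all 3 Top3b-KO and all 3 WT libraries, and it was not tested. All of its 1147 exonic bases in GENCODE M21 are also exonic in Atrip, a gene of the DNA damage checkpoint on the same strand. Of the 9 annotated Atrip transcripts, 3 reach into Trex1. Atrip-204, Atrip-205 and Atrip-202 share 1147, 1144 and 459 of these bases, and of them only Atrip-202 is annotated as protein-coding. Atrip was at 68.0, 59.4 and 60.0 CPM in Top3b-KO, against 68.6, 66.0 and 65.6 CPM in WT, with a log2 fold change of -0.093 (SE 0.075). In the table, 13 protein-coding genes, Trex1 included, have exons wholly inside same-strand exons of another coding gene. Of these, 12, again with Trex1 included, were listed at 0 in every library. Among the 18701 coding genes with no such overlap, 17.0% were. The 0 was not read as absence of Trex1 RNA from splenocytes, and its cause was not tested.

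**Figure D3:**
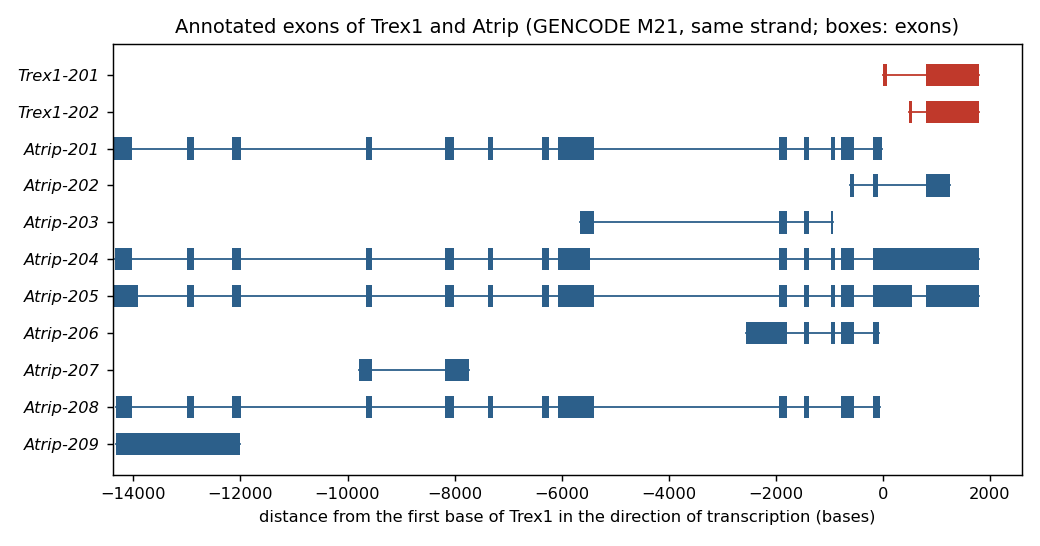
Annotated transcripts of Trex1 (top 2 rows) and Atrip (9 rows below), with exons as boxes, against distance in bases from the first base of Trex1 in the direction of transcription. Every Trex1 exon lies within an exon of Atrip-204.

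To compare levels between genes, CPM was divided by the median length in kilobases of each gene's protein-coding transcripts in GENCODE M21. On this CPM per kilobase scale Samhd1 was at 258 ± 8.07 in Top3b-KO and 247 ± 17.8 in WT, and Irf3, next in order, at 104 ± 1.25 in Top3b-KO and 112 ± 10.8 in WT (SD, n = 3 each). Tbk1, Sting1, Rigi and Adar followed, with means over all 6 libraries of 59.7, 55.9, 49.3 and 46.0 CPM per kilobase. The ranges of Tbk1 and Sting1 overlapped, as did those of Rigi and Adar. Mavs at 9.64 and Ifih1 at 7.60 CPM per kilobase also had overlapping ranges. Cgas came last, at 1.76 ± 0.225 CPM per kilobase in Top3b-KO and 1.65 ± 0.191 in WT. Dividing by the longest transcript instead kept Samhd1 and Irf3 first and Mavs, Ifih1 and Cgas last, and moved Rigi to rank 3, ahead of Tbk1 and Sting1. Among RNA sensors, the level of Rigi was above that of Ifih1 in every library on both length scales.

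The sensing genes did not deviate together in any knockout library. The number of the 9 that lay above their own mean over all libraries was 5 in each of the 3 Top3b-KO libraries, and 3, 3 and 7 in WT 1, WT 2 and WT 3. WT 1 was lowest for Rigi, Ifih1 and Samhd1 but highest for Irf3 and Mavs. For Mavs, the member of at least 10 CPM with the largest SD over the 6 libraries, the nearest profiles (Euclidean distance of centred log2 CPM among 9102 genes) were those of Micall1, Clcf1 and Acot11, at distances of 0.065 to 0.088 beside a median of 0.42. For Ifih1, the next by SD, profiles near it included those of Fam107b and Rnf103, at 0.045 and 0.046 beside a median of 0.32. These genes were picked for the smallest distances, which lie below the median by construction.

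**Figure D4:**
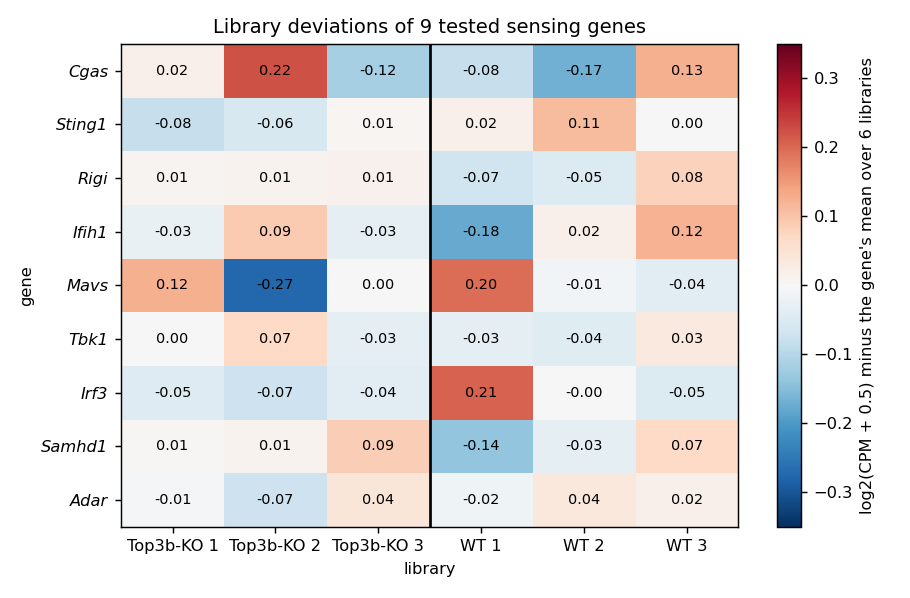
Deviation of each sensing gene in each library from its own mean over 6 libraries, as log2(CPM + 0.5), with Top3b-KO libraries left of the line and WT libraries right of it. The strongest colours are single cells, such as Mavs in Top3b-KO 2 (-0.27), Cgas in Top3b-KO 2 (0.22) and Irf3 in WT 1 (0.21), rather than a whole genotype.

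The rest of the pathway was read from 5 lists of 85 further genes, of which 81 were tested. None of the 81 passed an adjusted p of 0.05 by edgeR (0 by DESeq2's adjusted p). At an unadjusted p under 0.05 there were 2 of the 81, or 2.47%, beside 5.52% of all tested genes. With a library left out the count was 3, 1 and 4 without Top3b-KO 1, 2 and 3, or 3.7%, 1.23% and 4.94% of the 81. Of all genes tested in those fits, 5.59%, 3.6% and 4.35% were at that level. Without WT 1, 2 and 3 the count was 7, 1 and 8, or 8.64%, 1.23% and 9.88%. The shares of all genes tested there were 5.3%, 3.58% and 13.2%. For 6 of the 81 the genotypes did not overlap, all lower in Top3b-KO, where 5.63% of all tested genes were lower without overlap. RNA sensing partners had a median log2 fold change of -0.0099 over 23 genes, with 11 above and 12 below 0. The most abundant were Dhx9, an RNA helicase, at 0.11, and Zc3hav1, which encodes the antiviral zinc finger protein ZAP, at 0.046. DNA sensing partners had a median of -0.0068 over 21 genes, with the ubiquitin ligase gene Trim56 at 0.076 and the calcium sensor gene Stim1 at -0.0068. Kinases, scaffolds and interferon regulatory factors had a median of -0.0032 over 16 genes, with Ikbkb at -0.0048 and Irf1 at -0.0016. The other 4 tested genes of the Aicardi-Goutières list include the RNase H2 subunit genes Rnaseh2a, at 25.7 ± 0.555 CPM in Top3b-KO and 25.1 ± 2.98 CPM in WT, and Rnaseh2c, at 24.8 ± 1.58 CPM in Top3b-KO and 24.6 ± 1.64 CPM in WT (SD, n = 3 each).

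The 2 genes with an unadjusted p under 0.05, a share below that of all tested genes, were singled out after their values were seen. Ccl5, a chemokine made by T and natural killer cells, was at 50.5, 47.1 and 55.0 CPM in Top3b-KO, against 63.3, 59.0 and 59.1 CPM in WT. Its log2 fold change was -0.26 (SE 0.078), lower in 3 of 3 knockout libraries, and edgeR's adjusted p was 0.67. Irf8, a transcription factor of B and dendritic cells, was at 281, 259 and 261 CPM in Top3b-KO, against 302, 299 and 286 CPM in WT. Its log2 fold change was -0.15 (SE 0.064), lower in 3 of 3 knockout libraries, and edgeR's adjusted p was 0.88. Summed T cell markers were between 917 and 950 CPM in Top3b-KO and between 838 and 956 CPM in WT, with a ratio of means of 1.06. Summed natural killer markers were between 206 and 242 CPM in Top3b-KO and between 213 and 256 CPM in WT, with a ratio of 0.931. Summed conventional dendritic cell markers were between 158 and 174 CPM in Top3b-KO and between 174 and 193 CPM in WT, with a ratio of 0.898. Plasmacytoid dendritic cell markers, Bst2 among them, summed to between 449 and 494 CPM in Top3b-KO. In WT that sum was between 470 and 535 CPM, a ratio of 0.917. The ratio was 0.908 for summed red pulp macrophage markers and 0.999 for summed monocyte markers. The part of cell type shares in these differences was not tested. The other genes lower without overlap were Zcchc3, Banf1, Bst2 and Ifi35, with log2 fold changes of -0.29, -0.13, -0.18 and -0.14.

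Downstream of IRF3, interferon genes and targets had a median log2 fold change of -0.016 over 21 tested genes. Ifnb1, Ifna1, Ifna4 and Ifi44l were listed at 0 in every library. The most abundant targets, Parp14 and Trim30a, had log2 fold changes of 0.075 and -0.016. These targets differed between libraries of both genotypes. Of the 21, 16, 14 and 3 were below their own mean in Top3b-KO 1, 2 and 3, against 16, 8 and 0 in WT 1, 2 and 3. The median deviation was -0.041, -0.040 and 0.11 on the log2 scale in Top3b-KO 1, 2 and 3, against -0.23, 0.026 and 0.19 in WT 1, 2 and 3, so its span was wider in WT. Rsad2, an antiviral enzyme singled out after its values were seen, was at 55.9, 49.7 and 61.7 CPM in Top3b-KO, against 37.8, 74.6 and 72.1 CPM in WT. Leaving out WT 1 put the median log2 fold change of the targets at -0.12, with 17 of 21 below 0, and leaving out WT 3 put it at 0.088, with 13 of 21 above 0. Rigi, Ifih1 and Samhd1 followed the same order of WT libraries on a smaller scale. The other tested sensing genes did not. Irf3 and Mavs ran in the reverse order, and Cgas, Sting1, Tbk1 and Adar in neither. Among the knockout libraries Samhd1 was highest in Top3b-KO 3, Ifih1 was lowest there, and Rigi was at 149 CPM in each. Of the knockout libraries, Top3b-KO 3 had the highest median deviation of the targets and also the most neutrophil marker RNA. Of the WT libraries, the targets were highest in WT 3, but neutrophil markers in WT 2, at 1068 CPM. Summed B cell markers were 3212, 3762 and 3765 CPM in WT 1, 2 and 3. Summed T cell markers were 956, 848 and 838 CPM in the same libraries. The part of cell type shares in the spread within either genotype was not tested.

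**Figure D5:**
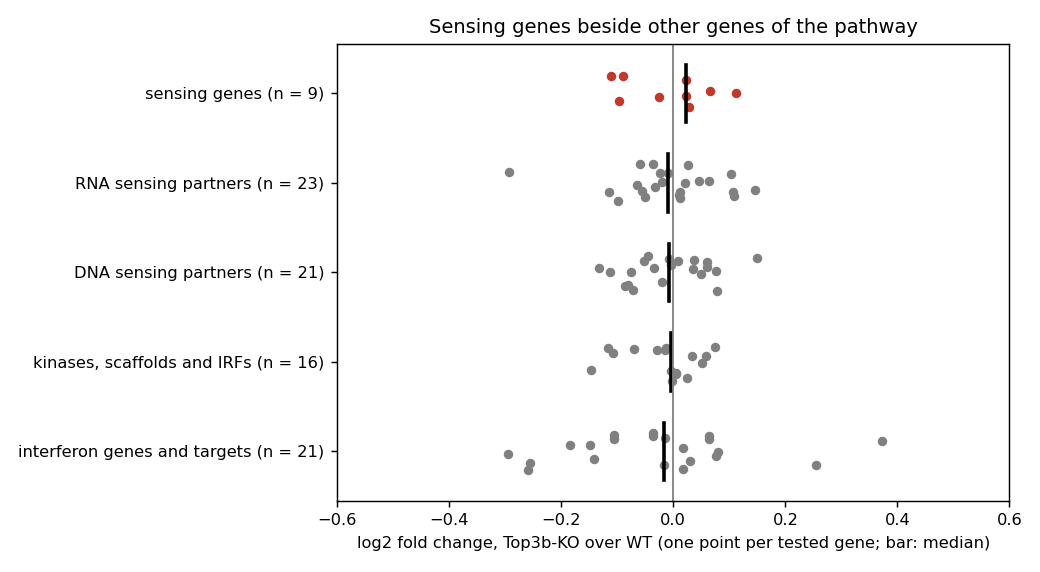
Log2 fold change (Top3b-KO over WT) of the 9 tested sensing genes (top) and of the tested genes on 4 lists of pathway partners, one point per gene, with a bar at each median. All 5 medians lie between -0.016 and 0.023.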

How the data were processed

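The authors deposited expected counts per gene symbol for 6 libraries. Per the submitters' processing notes, STAR aligned the reads to mm39. Neither the counting tool nor its strand setting or annotation is stated in the sources used here. Values that were not whole (tolerance 1e-06) occurred for 72 symbols, none of them a sensing gene, and all values were rounded first. Genes were kept by edgeR's filterByExpr (18716 genes) and tested with the quasi-likelihood F test (TMM factors, robust dispersion, genotype alone as term, two-sided), and p-values were adjusted over all of them (Benjamini-Hochberg, threshold 0.05). The test was tested on simulated counts. Intervals of 95% use the test's standard error. Versions were DESeq2 1.42.0, limma 3.58.1 and edgeR 4.0.16, run in R 4.3.3. A floor of 3 counts equals 0.119 to 0.303 CPM and covers counting error only. Exons and lengths came from GENCODE M21 and promoters from RefSeq, both on GRCm38, which differs from mm39. They were joined by symbol (Sting1 and Rigi under older symbols). The promoter search for members left out chromosome 18, where Sting1 lies. The members and lists were chosen with earlier results of these data known. Genes named from a list are those past the threshold or else the 2 most abundant, and any other was singled out after its values were seen. Alternatives changed scaling, filter, test, replicate block, libraries and transcript length. Those for genes other than the members were added after the data were seen. One gene that the rule for similar profiles names is not reported here.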

Additional observations from a re-analysis of the deposited data

How the results depend on the processing

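Over 15 alternatives, 0 of the 9 tested sensing genes and 0 of the 81 other pathway genes passed an adjusted p of 0.05. Over all genes, where 2 passed, the count was 44 when low counts were not filtered, 41 under the replicate block (none of them a sensing gene), 6 with DESeq2, and 1 with robust=FALSE or with limma-voom. It ran from 1 to 32 when a library was left out, at 32 without WT replicate 3, 9 without the first Top3b-KO library and 1 without WT replicate 1 or 2 or the second Top3b-KO library. Same-numbered libraries had deviations that correlated at 0.185, -0.0136 and 0.0138, and Top3b-KO replicate 2 correlated best with WT replicate 3, so the numbers were not taken to pair libraries. The median log2 fold change of the sensing genes ran from -0.022 without WT replicate 1 to 0.051 without WT replicate 3. Direction changed for 5 of 135 member values, all when a library was left out. Over those fits Mavs ran from -0.19 to 0.023, Ifih1 from -0.058 to 0.093, Rigi from -0.0079 to 0.070 and Adar from -0.052 to 0.0096. Mavs (0.023), Ifih1 (-0.016) and Adar (0.0096) changed sign without Top3b-KO replicate 2, and Ifih1 (-0.058) and Rigi (-0.0079) without WT replicate 1. Other named genes near 0 also changed sign when a library was left out, though not all in the same fits. Over the leave-one-out fits Irf1 ran from -0.054 to 0.063, Stim1 from -0.051 to 0.035 and Ikbkb from -0.044 to 0.045. Trim30a ran from -0.069 to 0.082, Rnaseh2a from -0.060 to 0.094, Rnaseh2c from -0.043 to 0.058 and Chrnb2 from -0.079 to 0.010. Irf1 was also at 0.0021 with upper quartile factors and 0.00090 with limma-voom, Rnaseh2c at -0.0029 with library totals, and Irf1, Stim1 and Ikbkb at 0.0066, 0.0013 and 0.0032 with no filter. Clec16a had an adjusted p of 0.071 with robust=FALSE, 0.082 with limma-voom and 0.058 to 0.30 without any library but WT replicate 3. Why these values moved was not tested. Cgas is the member that depth limits most, with 56 counts in Top3b-KO replicate 3.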
